A study of Danio rerio with 24 samples.

Results

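Genes of neutrophil granules and secretions were followed cell by cell through zebrafish whole kidney marrow (WKM), where blood cells of adult fish are made: *mpx* (ENSDARG00000019521), *lyz* (ENSDARG00000057789), *npsn* (ENSDARG00000010423), *cpa5* (ENSDARG00000021339), *lect2l* (ENSDARG00000033227) and *scpp8* (ENSDARG00000093124). They were chosen by name, as 6 of the 23981 genes in the files, and all 6 were detected. WKM cells had been sorted singly into plates by light scatter and sequenced by mCEL-Seq2, a method that tags each transcript near its 3′ end with a molecular identifier (UMI) before amplification. Fish were 3 months of age, and 24 libraries were made, 8 each of the *ikzf1* mutant line fr105, the *ikzf1* mutant line IT325 and wild-type. The fr105 allele is a deletion made with CRISPR/Cas9 that leaves a protein with the first zinc finger alone, whereas the chemically induced nonsense allele IT325 leaves a protein without its C-terminal zinc fingers. Each mutant genotype was 1 allele, the labels name no fish, and the methods place the libraries of a genotype on 1 sequencing lane, so that lane and genotype cannot be told apart. The p-values given here therefore measure the spread between libraries, which may be technical, and both mutants were compared with the same wild-type libraries.

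Neutrophils arm themselves while they mature. In mammals, peroxidase-bearing granules are filled first, while precursors still divide in the marrow, and granules rich in matrix metalloproteinases such as MMP9 are filled late, close to the release of the cell. The gene *mpx* encodes the myeloid peroxidase that turns hydrogen peroxide into microbicidal oxidants, *lyz* encodes lysozyme, which cleaves bacterial cell walls, and *npsn* encodes nephrosin, a metalloprotease of the astacin family. The gene *cpa5* encodes a carboxypeptidase of the A family and is used in zebrafish as a marker of mast cells too, *lect2l* encodes a relative of leukocyte cell-derived chemotaxin 2, and *scpp8* belongs to the secretory calcium-binding phosphoproteins, a family best known from mineralized tissue.

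With a minimum of 1500 transcripts per barcode, there were 304 fr105 cells, 359 IT325 cells and 345 wild-type cells. Libraries held 23 to 45 cells in fr105, 37 to 52 in IT325 and 22 to 56 in wild-type, and 103585 to 368354, 302550 to 545086 and 122155 to 346956 transcripts in these genotypes. Median depth per cell ran from 3264 to 6120 transcripts in fr105 libraries, from 5364 to 8753 in IT325 libraries and from 3160 to 4502 in wild-type libraries. It tended to be highest in IT325, where RNA content per cell and depth of sequencing cannot be told apart. The targeted gene, *ikzf1*, was present at 1.02 to 1.83 transcripts per 10000 in fr105 libraries, 1.04 to 2.06 in IT325 libraries and 0.25 to 0.85 in wild-type libraries. Since 3′ tags are counted, these levels do not check the lesions or the labels.

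Most transcripts of the 6 genes lay in 1 class of cells. Cells were clustered without the 6 genes, and 5 of 18 clusters, with 506 of 1008 cells, were called neutrophil-like because they carried 17 or 18 of 20 matched markers, among them *csf3r*, *srgn* and *cybb*; the receptor gene *cxcr1* was the 1 marker without a UMI. These cells held 93.9% of all *mpx* transcripts, 95.1% of *lyz*, 95.04% of *npsn*, 94.2% of *cpa5*, 96.7% of *lect2l* and 96.5% of *scpp8*. Per 10000 transcripts, neutrophil-like cells held 410 of *lyz*, 102 of *lect2l*, 90.3 of *npsn*, 40.3 of *mpx*, 26.5 of *cpa5* and 4.74 of *scpp8*. Since 3′ ends are counted once per transcript, gene length does not enter these levels. Together the 6 genes averaged 8.23% of the transcripts of neutrophil-like cells in fr105 libraries, 6.43% in IT325 libraries and 4.80% in wild-type libraries.

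Outside these cells the genes were found at a low level that differed by genotype. Erythroid-like cells, which should lack granule genes, held 11.6 transcripts of *lyz*, 2.52 of *npsn*, 2.18 of *lect2l*, 1.59 of *mpx*, 0.94 of *cpa5* and 0.02 of *scpp8* per 10000. In all cells other than neutrophil-like ones, *npsn* averaged 7.84 per 10000 in fr105 libraries, 4.06 in IT325 libraries and 0.49 in wild-type libraries, and *lect2l* averaged 6.82, 1.42 and 3.17 in these genotypes. For these genes the order of the genotypes was that found in the neutrophil-like cells, described next. The gene *mpx*, which was highest in IT325 neutrophil-like cells, averaged 2.73 per 10000 in the other cells of fr105 libraries, 2.70 in IT325 libraries and 0.83 in wild-type libraries. A cluster of 31 cells with *il13*, *il4* and *gata2a*, genes of type 2 immune responses and mast cells, held 1.25 transcripts of *cpa5* and 2.66 of *mpx* per 10000, close to the erythroid-like level. Of the 5 matched mast cell and eosinophil markers, *kita* was at 0.58 in it, at least 2 times the median of the clusters, in 6 of the 31 cells. Neutrophil-like cluster 3 held more *kita* (1.05). The gene *eslec* was at 0.25, in 2 of the 31 cells. A further cluster, of 12 cells, had a similar level of *gata2a* (4.47 against 4.49) and the highest level of *eslec*. Neither cluster was named, so no level of *cpa5* in mast cells is read from these values. Whether free RNA contributed was not tested.

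Within neutrophil-like cells, the genotypes were compared on transcripts summed per library, with 17 to 28 such cells in fr105 libraries, 12 to 20 in IT325 libraries and 15 to 29 in wild-type libraries. The edgeR quasi-likelihood test was run over 1786 genes, with Benjamini-Hochberg adjustment and a threshold of 0.05, and all 6 granule genes passed its filter on low counts. In fr105, 6 of 6 genes were higher than in wild-type; 19.3% of all genes tested passed in either direction and 10.1% were higher. The calls of *npsn*, *mpx* and *cpa5* in fr105 held under all 12 alternatives, whereas those of *lyz*, *lect2l* and *scpp8* held under 6, 7 and 9 of them, as given with each gene. In IT325, *npsn*, *mpx* and *cpa5* were higher than in wild-type, *lect2l* was lower, and *lyz* and *scpp8* did not pass, beside 36.1% of all genes. Between the mutants, *npsn* and *lect2l* were higher in fr105 than in IT325 and *mpx* was lower, beside 24.9% of all genes. The ranges of the libraries did not overlap for 2 of 6 genes in fr105 against wild-type (5.88% of all genes), for 4 of 6 in IT325 against wild-type (8.73%) and for 2 of 6 in fr105 against IT325 (5.1%).

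**Figure D1:**
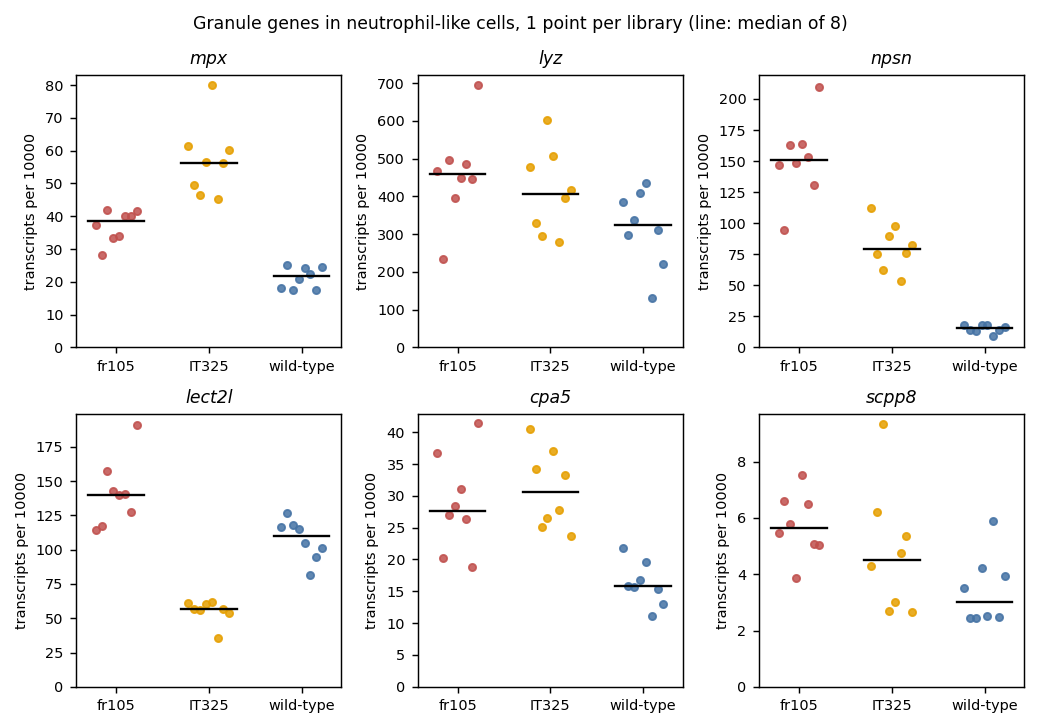
Transcripts per 10000 of each granule gene in the neutrophil-like cells of every library, 8 libraries per genotype, with fr105, IT325 and wild-type from left to right, 1 point per library and a line at the median. For *npsn* the medians were 151, 79.3 and 15.4, with no wild-type library among the mutant ones, and for *lect2l* all IT325 libraries (35.6 to 62.1) lay under the lowest wild-type library (81.6).

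The protease gene *npsn* showed the largest difference of the 6 genes in both mutants. Its lowest, median and highest level was 94.5, 151 and 210 transcripts per 10000 in fr105 libraries, 53.6, 79.3 and 112 in IT325 libraries, and 9.04, 15.4 and 18.4 in wild-type libraries. Every mutant library lay above the highest wild-type library, and 7 of 8 fr105 libraries lay above the highest IT325 library. Fitted on the log2 scale, fr105 stood 3.30 above wild-type (SE 0.16, adjusted p 4.13e-18), which is 9.85-fold with a 95% interval of 7.89 to 12.3. In IT325 against wild-type it was 2.49 (SE 0.16, adjusted p 5.52e-15), or 5.62-fold with an interval of 4.53 to 6.97. The difference between the mutants, 0.81 for fr105 against IT325 (SE 0.15, adjusted p 8.59e-05), passed as well.

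The peroxidase gene *mpx* was higher in both mutants, and highest in IT325. Its levels were 28.1, 38.6 and 41.9 per 10000 in fr105 libraries (lowest, median, highest), 45.2, 56.3 and 80.1 in IT325 libraries, and 17.4, 21.7 and 25.2 in wild-type libraries. The 3 genotypes did not overlap at all. On the log2 scale it differed by 0.78 in fr105 against wild-type (SE 0.12, adjusted p 5.73e-06) and by 1.49 in IT325 against wild-type (SE 0.12, adjusted p 3.41e-12). In fr105 against IT325 it was -0.71 (SE 0.12, adjusted p 2.65e-05), so that *mpx* and *npsn* stood in opposite order between the mutants.

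The chemotaxin-like gene *lect2l* was the 1 granule gene that was lower in a mutant. Its levels were 114, 140 and 191 per 10000 in fr105 libraries, 35.6, 56.6 and 62.1 in IT325 libraries, and 81.6, 110 and 127 in wild-type libraries. All 8 IT325 libraries lay under every wild-type and every fr105 library, while 6 of 8 fr105 libraries lay above the highest wild-type library. The log2 fold change was -0.89 in IT325 against wild-type (SE 0.12, adjusted p 1.64e-07), a level lower by 1.85-fold, and 1.27 in fr105 against IT325 (SE 0.12, adjusted p 9.46e-11). Its difference of fr105 from wild-type was 0.38 (SE 0.12, adjusted p 0.0186). This last call was lost without fr105 replicate 3, fr105 replicate 8 or wild-type replicate 6, over a range of 0.26 to 0.45 for 16 fits with 1 library left out and with an adjusted p of up to 0.107. It was also lost with a finer clustering (0.15, adjusted p 0.456), without clustering (0.30, adjusted p 0.119) and in cells of at least 3000 transcripts (0.28, adjusted p 0.110). A further gene that the name table also calls LECT2 (ENSDARG00000090889) held 5.45% as many transcripts as *lect2l*. Its log2 fold change in IT325 against wild-type was 0.97 (adjusted p 6.52e-06), of the opposite sign, and because reads matching more than 1 locus were discarded, how reads were shared between these genes is uncertain.

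The carboxypeptidase gene *cpa5* was higher in both mutants, to a similar extent. Its levels were 18.9, 27.7 and 41.4 per 10000 in fr105 libraries, 23.7, 30.5 and 40.5 in IT325 libraries, and 11.04, 15.8 and 21.9 in wild-type libraries. IT325 libraries did not overlap with wild-type ones, and 6 of 8 fr105 libraries lay above the highest wild-type library. On the log2 scale fr105 was 0.81 above wild-type (SE 0.16, adjusted p 0.000158) and IT325 was 1.00 above it (SE 0.16, adjusted p 3.22e-06). In fr105 against IT325 it was -0.19 (SE 0.15, adjusted p 0.387), with an interval of the fold of 0.71 to 1.08.

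The most abundant of the genes, *lyz*, varied widely between libraries, and its calls were unstable. Its levels were 235, 458 and 695 per 10000 in fr105 libraries, 280, 406 and 603 in IT325 libraries, and 130, 325 and 435 in wild-type libraries. All ranges overlapped. The log2 fold change in fr105 against wild-type was 0.52 (SE 0.19, adjusted p 0.0461), a call lost without fr105 replicate 3, 5, 7 or 8 or wild-type replicate 2, 6, 7 or 8 (range 0.36 to 0.64, adjusted p of up to 0.181). It was lost as well with DESeq2 (adjusted p 0.0647), with UMI counts (adjusted p 0.0740), in cells of at least 3000 transcripts (adjusted p 0.136), without clustering (adjusted p 0.154) and with a finer clustering (adjusted p 0.186), at values of 0.36 to 0.52. In IT325 against wild-type it was 0.45 (SE 0.19, adjusted p 0.0550), which did not pass and would have passed without IT325 replicate 2, 3, 10 or 11 or wild-type replicate 1, 3, 4 or 5 (range 0.32 to 0.56, adjusted p from 0.0217). It also passed in thinned cells (0.61, adjusted p 0.00872) and with no filter on low counts (0.54, adjusted p 1.01e-05). The mutants did not differ detectably, at 0.07 for fr105 against IT325 (SE 0.19, adjusted p 0.818), with an interval of the fold of 0.81 to 1.35.

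The least abundant gene, *scpp8*, was at 3.86, 5.63 and 7.51 per 10000 in fr105 libraries, 2.67, 4.52 and 9.36 in IT325 libraries, and 2.43, 3.00 and 5.91 in wild-type libraries. All ranges overlapped, and 3 of 8 fr105 libraries lay above the highest wild-type library. The log2 fold change in fr105 against wild-type was 0.75 (SE 0.22, adjusted p 0.0116), whereas in IT325 against wild-type it was 0.54 (SE 0.22, adjusted p 0.0523). The fr105 call was lost without clustering (0.67, adjusted p 0.0820) and in mmp-bearing cells, defined further on (0.48, adjusted p 0.129). The IT325 value passed with a replicate block (0.81, adjusted p 0.0354) and with no filter on low counts (0.62, adjusted p 0.0331). It would also have passed without IT325 replicate 1, 4, 9 or 12 or wild-type replicate 6 or 8 (range 0.37 to 0.70, adjusted p from 0.0147). The difference between the mutants was 0.21 for fr105 against IT325 (SE 0.21, adjusted p 0.510), with an interval of the fold of 0.87 to 1.53.

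The libraries of each genotype fell into 2 sets of 4, labelled P1 and P2 without further explanation. Within P1 alone and within P2 alone, *npsn* in neutrophil-like cells differed by 3.09 and 3.503 on the log2 scale in fr105 against wild-type and by 2.36 and 2.61 in IT325 against wild-type. The gene *mpx* differed by 0.76 and 0.81 in fr105 and by 1.63 and 1.34 in IT325, *cpa5* by 0.64 and 1.00 and by 0.85 and 1.16, and *lect2l* in IT325 by -1.13 and -0.64. All of these passed in both sets. In fr105 against wild-type, *lyz* differed by 0.12 in P1 (adjusted p 0.751) and 0.93 in P2 (adjusted p 0.0216), and *lect2l* by 0.12 (adjusted p 0.694) and 0.65 (adjusted p 0.00873), so that these calls passed in P2 alone. For *scpp8* in fr105 the values were 0.81 (adjusted p 0.0334) and 0.70 (adjusted p 0.160).

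The neutrophil-like class was not made of the same clusters in every genotype. Of 183 fr105 cells, 96 lay in cluster 1 and 73 in cluster 3; of 129 IT325 cells, 91 lay in cluster 4, a cluster led by *mmp9* and *grn1*; and of 194 wild-type cells, 122 lay in cluster 2. Cluster 3 was the cluster richest in *lyz*, *npsn* and *cpa5* over all genotypes. In it, *npsn* was at 178 per 10000 in 73 fr105 cells, 137.2 in 22 IT325 cells and 26.4 in 17 wild-type cells, and *lect2l* was at 163, 71.6 and 135 in these genotypes. In contrast, *lyz* was at 583, 863 and 815, so that the genotypes stood in another order for *lyz* than in the whole class. These are sums over cells, given without a test.

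Other measures moved with genotype in the same cells. The summed level of 12 erythroid markers in neutrophil-like cells ran from 4.003 to 32.5 per 10000 in fr105 libraries, 71.2 to 140 in IT325 libraries and 12.1 to 91.8 in wild-type libraries, with all 12 genes detected in each genotype. The summed level of the 20 neutrophil markers ran from 101 to 121, 129 to 196 and 99.5 to 158 in these genotypes. Depth per cell differed as given above; with every cell thinned at random to 1500 transcripts, the log2 fold change of *npsn* was 3.48 in fr105 and 2.63 in IT325, that of *mpx* 0.67 and 1.28, and that of *lect2l* 0.39 and -0.75, and these calls all remained. The part of the erythroid transcripts in the results was not tested.

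In sums over all cells of a library, the number of neutrophil-like cells enters as well, and fewer cells of a type and less RNA per cell cannot be told apart. Neutrophil-like cells made up 53.3 to 73.9% of the cells of fr105 libraries (median 60.7%), 27.3 to 47.6% of IT325 libraries (median 35.5%) and 47.9 to 72.7% of wild-type libraries (median 56.4%). By this measure 6 of 6 genes were higher in fr105 than in wild-type, beside 23.9% of 3296 genes tested in either direction and 11.6% higher. In IT325, *npsn*, *mpx* and *cpa5* were higher and *lect2l* was lower than in wild-type, beside 21.8% of all genes, and *npsn*, *lect2l*, *scpp8* and *lyz* were higher in fr105 than in IT325, beside 28.7%. Ranges did not overlap for 3, 2 and 3 of the 6 genes in these comparisons, beside 4.49%, 5.25% and 5.95% of all genes.

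The level of *npsn* in all cells was 61.6, 95.4 and 134.2 per 10000 in fr105 libraries (lowest, median, highest), 15.1, 33.1 and 49.6 in IT325 libraries, and 3.83, 8.33 and 13.4 in wild-type libraries. No ranges overlapped, and on the log2 scale fr105 stood 3.65 above wild-type (SE 0.23, adjusted p 2.29e-12), IT325 2.23 above wild-type (SE 0.22, adjusted p 4.6e-09) and fr105 1.42 above IT325 (SE 0.21, adjusted p 1.19e-05). For *lect2l* the levels were 64.4, 87.5 and 122 in fr105 libraries, 13.1, 22.1 and 26.1 in IT325 libraries, and 31.8, 52.8 and 83.9 in wild-type libraries. IT325 libraries lay apart from both other genotypes, at -1.25 against wild-type (SE 0.19, adjusted p 9.39e-06), while fr105 overlapped with wild-type, at 0.70 (SE 0.19, adjusted p 0.00615; 0.35 within P1, adjusted p 0.335, where it was not called).

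For *mpx*, the levels in all cells were 18.7, 23.4 and 32.1 per 10000 in fr105 libraries, 11.2, 22.9 and 32.9 in IT325 libraries, and 6.55, 10.2 and 17.2 in wild-type libraries. The mutants overlapped over nearly their whole range, at -0.06 on the log2 scale for fr105 against IT325 (SE 0.18, adjusted p 0.846), and stood 1.15 and 1.21 above wild-type in fr105 and IT325. The level of *cpa5* differed by 1.15 in fr105 against wild-type (SE 0.20, adjusted p 0.000139) and by 0.74 in IT325 against wild-type (SE 0.20, adjusted p 0.00909). The IT325 call was lost within P1, at 0.44.

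The lysozyme gene *lyz* was at 158, 282 and 443 per 10000 of all transcripts in fr105 libraries, 71.3, 167.5 and 259 in IT325 libraries, and 56.8, 189 and 297 in wild-type libraries. It differed by 0.84 in fr105 against wild-type (SE 0.25, adjusted p 0.0146; 0.34 within P1, where it was not called) and by 0.12 in IT325 against wild-type (SE 0.25, adjusted p 0.768). Its difference between the mutants, 0.72 (SE 0.25, adjusted p 0.0317), was lost without IT325 replicate 2, 3 or 10 or fr105 replicate 3 or 8 (range 0.61 to 0.82, adjusted p of up to 0.0784). It was also lost with a replicate block (0.98, adjusted p 0.0723), within P1 (adjusted p 0.0913) and within P2 (adjusted p 0.111). The gene *scpp8* was at 2.67, 3.67 and 4.49 in fr105 libraries, 1.101, 1.82 and 2.24 in IT325 libraries, and 0.88, 1.52 and 3.04 in wild-type libraries. All fr105 libraries lay above the highest IT325 library (0.92 on the log2 scale, SE 0.22, adjusted p 0.00227; 0.78 within P2, adjusted p 0.0759, where it was not called), and 7 of 8 lay above the highest wild-type library (1.13, SE 0.23, adjusted p 0.000478).

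**Figure D2:**
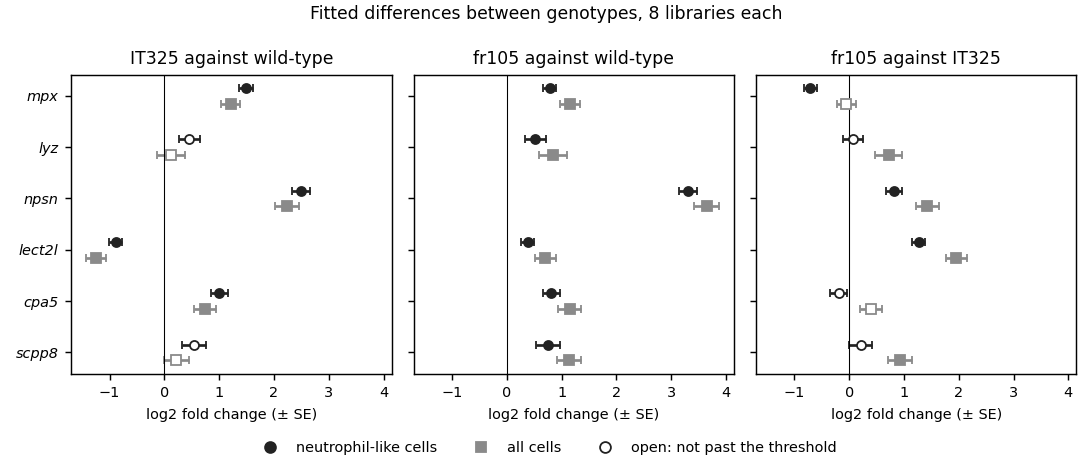
Log2 fold change with its standard error (x axis) for each granule gene (rows) in sums over neutrophil-like cells (circles) and over all cells (squares), in 3 panels for IT325 against wild-type, fr105 against wild-type and fr105 against IT325, with open symbols where the adjusted p was not under 0.05. The value of *lect2l* lies left of 0 in IT325 (-0.89 and -1.25) and right of 0 in fr105 (0.38 and 0.70), and *mpx* in fr105 against IT325 is at -0.71 in neutrophil-like cells and at -0.06 in all cells.

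The share of all cells of a library with at least 1 UMI was compared after every cell had been thinned to 1500 transcripts, by a two-sided exact permutation test over the 12870 ways to divide 16 libraries, which can give no p below 0.00016, adjusted over 2703 genes. As background, 30% of thinned erythroid-like cells (median depth before thinning 8131) had a UMI of *npsn*, 18.0% of *lect2l*, 17.0% of *cpa5*, 23.0% of *mpx* and 82.0% of *lyz*, against 79.1%, 94.9%, 77.9%, 90.7% and 96.6% of neutrophil-like cells (median depth 5257). Most of these erythroid-like cells were of IT325 (38 of 53, 17 of 31 and 16 of 16 in clusters 8, 13 and 17). Levels outside neutrophil-like cells differed by genotype, as given above, so this background is not that of each genotype. The gene *npsn* was found in 69.6, 84.9 and 91.9% of cells in fr105 libraries (lowest, median, highest), 36.5, 58.2 and 69.05% in IT325 libraries, and 22.2, 39.6 and 45.5% in wild-type libraries. The mean difference from wild-type was 44.3 points in fr105 (exact permutation test, adjusted p 0.0075), where 7.55% of all genes passed. It was 17.1 points in IT325 (exact permutation test, adjusted p 0.0384), where 13.2% passed. The IT325 call was lost without any 1 of 9 libraries (IT325 replicate 1, 4, 9, 10 or 12 or wild-type replicate 1, 5, 6 or 7; 14.8 to 19.9 points over all 16, adjusted p of up to 0.0647), and at 3000 transcripts per cell the difference was 8.405 points (adjusted p 0.480).

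The gene *lect2l* was found in 73.9, 79.7 and 95.1% of cells in fr105 libraries, 34.6, 47.1 and 59.5% in IT325 libraries, and 64.4, 73.8 and 81.8% in wild-type libraries. IT325 was lower than wild-type by 26.7 points (exact permutation test, adjusted p 0.00488), with no overlap, and fr105 was higher than IT325 by 34.7 points (adjusted p 0.00764), where 9.43% of all genes passed. These shares include the share of neutrophil-like cells given above. Among neutrophil-like cells alone, pooled over libraries, *lect2l* was found in 95.6% of fr105, 93.8% of IT325 and 94.8% of wild-type cells, *npsn* in 94.5%, 88.4% and 58.2%, and *cpa5* in 84.7%, 83.7% and 67.5%. The share of *cpa5* was 17.6 points higher in fr105 than in wild-type (exact permutation test, adjusted p 0.0173), a call lost at full depth (15.2 points, adjusted p 0.065), at 3000 transcripts per cell (17.4 points, adjusted p 0.0767) and with at least 2 UMIs (13.0 points, adjusted p 0.0550). For *mpx*, fr105 stood 14.9 points above IT325. Its level over all cells did not differ detectably between the mutants, and its level in neutrophil-like cells was lower in fr105. The share of *mpx* includes the share of neutrophil-like cells, so no order of levels is read from it. The share of *lyz* was 87.0 to 100% in fr105, 71.2 to 98.0% in IT325 and 71.7 to 94.6% in wild-type, near that of erythroid-like cells, and passed in no comparison. The share of *scpp8* was 14.0 points higher in fr105 than in wild-type (exact permutation test, adjusted p 0.0075). This call remained at full depth (20.4 points, adjusted p 0.00844) and at 3000 transcripts per cell (20.9 points, adjusted p 0.0196). It was lost with at least 2 UMIs (5.09 points, adjusted p 0.0956). In IT325 the difference was -5.22 points (adjusted p 0.224). The thinned level of *scpp8* was under 1 UMI per cell, so no change of level is read from its share.

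Cells were counted by how many of the 6 genes were found in them. After thinning, 45.4% of 183 fr105 neutrophil-like cells, 30.2% of 129 IT325 cells and 12.4% of 194 wild-type cells had a UMI of all 6 genes, and the mean number of genes per cell was 5.22, 4.96 and 4.40. In other cells the mean number was 2.70, 1.84 and 1.54, and 1 cell, of fr105, had all 6. Cells with 5 of the 6 genes made up 40.4% of fr105, 51.9% of IT325 and 46.9% of wild-type neutrophil-like cells. Over all neutrophil-like cells, pairs of genes were found together little more often than the product of their single shares. The 2 values were closest for *lyz* and *scpp8* (43.7% against 43.4%) and furthest apart for *npsn* and *cpa5* (68.0% against 61.6%). Shares with all 6 genes were not set against such a product, so their order is not read as co-expression. Whether a gene is found in a cell depends in part on its level, so these shares are not independent of the levels given above. The share of neutrophil-like cells with *lect2l* differed little between genotypes, as given above, although its level was lower in IT325. With a median of 5 UMIs of *lect2l* per thinned IT325 cell, that share was near its upper limit and could hardly show a lower level. These shares are given without a test.

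**Figure D3:**
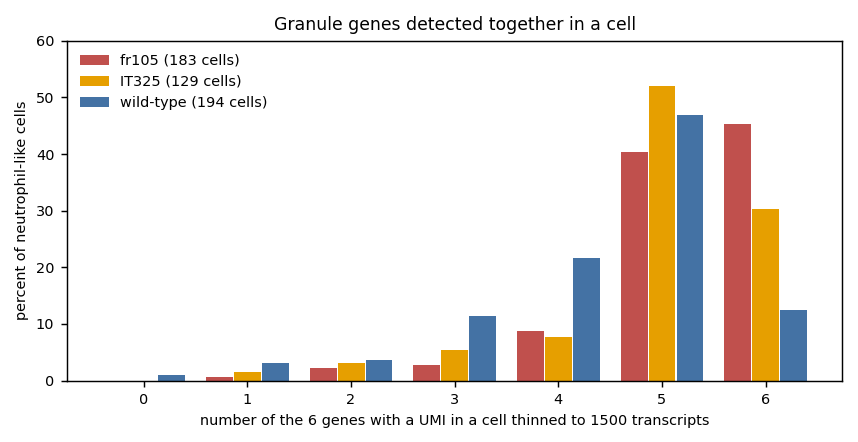
Percent of neutrophil-like cells (y axis) with 0 to 6 of the granule genes detected (x axis) after thinning to 1500 transcripts, with bars for fr105 (183 cells), IT325 (129 cells) and wild-type (194 cells) from left to right. All 6 genes were found in 45.4% of fr105, 30.2% of IT325 and 12.4% of wild-type cells.

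Levels per cell spread widely. Thinned neutrophil-like cells had a median of 26 *lyz* UMIs in fr105, 28 in IT325 and 13 in wild-type, with highest values of 229, 256 and 173. The top 10% of the 506 neutrophil-like cells held 36.3% of their *lyz* UMIs. For *npsn* the medians were 17, 8 and 1 UMIs, and for *lect2l* 17, 5 and 11. The median of *mpx* was 4 UMIs in fr105, 7 in IT325 and 3 in wild-type, and that of *scpp8* was 1, 0 and 0.

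Correlations of log2(1 + UMIs) over the 506 thinned neutrophil-like cells describe which genes were high in the same cells; these cells share libraries and genotypes, and no p is given. All but *scpp8* were positively correlated: *lyz* correlated with *lect2l* at r = 0.70, with *npsn* at 0.69 and with *cpa5* at 0.66, *npsn* with *cpa5* at 0.61 and with *lect2l* at 0.58, and *cpa5* with *lect2l* at 0.54. The gene *mpx* had r between 0.47 and 0.58 with these genes. The gene *scpp8* had r between -0.14 (*lyz*) and 0.06 (*npsn*). Within libraries, the mean r of *lyz* and *npsn* was 0.77, positive in 24 of 24 libraries, and that of *lyz* and *scpp8* was -0.19, positive in 5 of 24.

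In wild-type cells, correlations with *npsn* and *mpx* were lower. The correlation of *lyz* and *npsn* was 0.87 in fr105, 0.83 in IT325 and 0.61 in wild-type cells, that of *mpx* and *npsn* 0.69, 0.65 and 0.33, and that of *mpx* and *lyz* 0.63, 0.57 and 0.38. In contrast, *lyz* and *lect2l* were at 0.78, 0.73 and 0.71, and *lyz* and *cpa5* at 0.63, 0.64 and 0.69. Wild-type cells had a median of 1 UMI of *npsn* and 3 of *mpx*, and the part of these low counts in the correlations was not tested. The pair of *lyz* and *scpp8* was at -0.10 in fr105, -0.24 in IT325 and -0.20 in wild-type, positive in 3, 1 and 1 of 8 libraries.

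**Figure D4:**
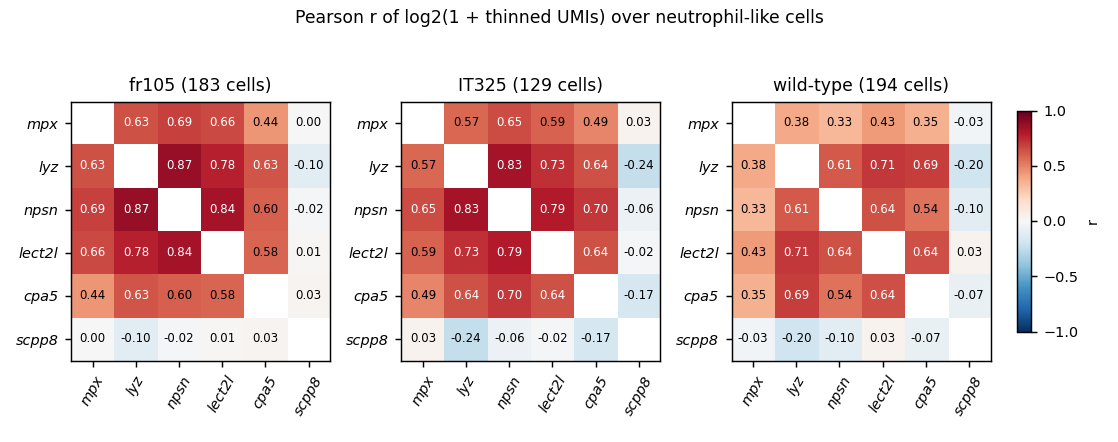
Pearson correlation of log2(1 + thinned UMIs) for each pair of granule genes over neutrophil-like cells, as a coloured matrix (red positive, blue negative) for fr105 (183 cells), IT325 (129 cells) and wild-type (194 cells) from left to right. Pairs among *lyz*, *npsn*, *lect2l* and *cpa5* are red in every genotype, *lyz* and *npsn* are at 0.87 in fr105 and 0.61 in wild-type, and the row of *scpp8* stays near 0 or below.

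The genes whose pattern was most like that of each granule gene were mostly other granule genes. Over all 1008 cells and 2702 genes, *lyz* was nearest to *lect2l* (r = 0.80), *npsn* (0.77) and *srgn* (0.77), the gene of serglycin, a proteoglycan that packs granule proteins. Both *npsn* and *cpa5* were nearest to *lyz* (0.77 each), *lect2l* was nearest to CABZ01040055.1 (0.81) and *lyz* (0.80), and *mpx* to CABZ01040055.1 (0.76) and *lect2l* (0.75). The gene *scpp8* was nearest to *anpepla* (0.44), an aminopeptidase gene, CABZ01040055.1 (0.44) and *actb2* (0.43), a gene of cytoplasmic actin. Within the 506 neutrophil-like cells and over 3104 genes, *scpp8* was again nearest to *anpepla* (0.30) and *actb2* (0.26), followed by ZFP36 (0.25), whereas *lyz* was nearest to *srgn* (0.71), si:ch1073-429i10.1 (0.70) and *lect2l* (0.70).

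To place the genes along maturation, neutrophil-like cells were divided by genes other than the 6. Cells with at least 2 UMIs of a list of cell division genes and fewer than 2 of *mmp9*, *mmp13a* and *mmp25b* together were called dividing (21 fr105, 15 IT325 and 28 wild-type cells), and those with the reverse were called mmp-bearing (70, 71 and 97 cells). A further 54 cells had both and 150 neither. In 15 libraries with at least 2 cells of each kind (4 fr105, 4 IT325 and 7 wild-type), the edgeR quasi-likelihood test with library as a block was run over 373 genes. Of the 6 genes, *scpp8* and *mpx* were higher and *lyz* was lower in mmp-bearing than in dividing cells, beside 61.4% of all genes in either direction, so that passing the test did not set the granule genes apart.

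The gene *scpp8* was at 2.19, 5.11 and 9.47 per 10000 in mmp-bearing cells (lowest, median, highest library) and at 0, 1.88 and 5.42 in dividing cells. It was higher in mmp-bearing cells in 15 of 15 libraries, the fitted difference being 1.63 on the log2 scale (SE 0.26, adjusted p 1.2e-05). After thinning, a UMI of *scpp8* was found in 52.4% of dividing cells of fr105, 13.3% of IT325 and 0% of wild-type. Low counts in dividing cells therefore limit this value. The gene *lyz* was at 63.3, 214 and 678 in mmp-bearing cells and at 155, 528 and 955 in dividing cells. It was lower in mmp-bearing cells in 14 of 15 libraries, all but 1 of fr105, the fitted difference being -1.27 (SE 0.24, adjusted p 9.37e-05). With cells pooled over genotypes, *lyz* was at 277 per 10000 in mmp-bearing cells, 538 in cells with both, 562 in dividing cells and 477 in cells with neither, and *scpp8* was at 6.35, 4.19, 2.25 and 3.91. These pooled orders did not hold in each genotype. For *scpp8*, fr105 cells with neither (5.65) stood above those with both (4.55), and IT325 cells with neither (1.37) stood below dividing cells (1.72). Cells with both held more *lyz* than dividing cells in fr105 (752 against 605) and wild-type (458 against 440), and less in IT325 (382 against 671).

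The fitted differences of the other genes were smaller. The gene *mpx* was higher in mmp-bearing cells in 12 of 15 libraries, by 0.36 on the log2 scale (SE 0.15, adjusted p 0.0403). That call was lost without any 1 of 9 libraries (IT325 replicate 9 or 12, fr105 replicate 3 or 8, or wild-type replicate 1, 3, 4, 5 or 7; range 0.29 to 0.46, adjusted p of up to 0.102). It was lost as well with a minimum of 3 UMIs in place of 2 (0.45, adjusted p 0.128). The value of *cpa5* was -0.36 (SE 0.17, adjusted p 0.0595), higher in mmp-bearing cells in 3 of 15 libraries and in 0 of 7 wild-type ones. It would have passed without IT325 replicate 12 or fr105 replicate 3 (range -0.49 to -0.28). For *npsn* it was -0.23 (SE 0.17, adjusted p 0.243), with 7 of 15 libraries higher, and for *lect2l* 0.20 (SE 0.21, adjusted p 0.442), with 9 of 15 higher. With cells pooled by genotype, *cpa5* was at 11.1 per 10000 in mmp-bearing and 19.8 in dividing wild-type cells. In fr105 these values were 24.1 and 30.4, and in IT325 31.6 and 34.5.

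**Figure D5:**
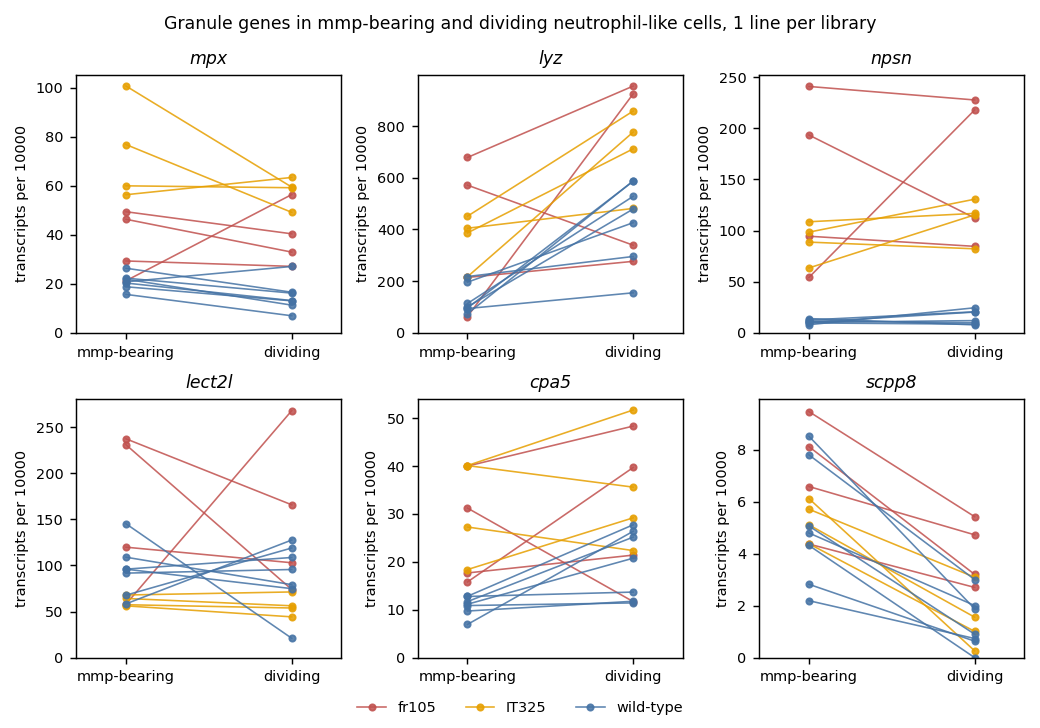
Transcripts per 10000 of each granule gene in mmp-bearing cells (left) and dividing cells (right) of the 15 libraries with at least 2 cells of each kind, 1 line per library, coloured by genotype. Every line of *scpp8* runs down to the right, all but 1 line of *lyz* run up, and lines of *npsn* and *lect2l* run both ways.

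The direction of *lyz* turned when cells of clusters without a name were added. With all cells outside the other named classes, *lyz* was at 0.51 (adjusted p 0.213), *npsn* at 1.20 (adjusted p 0.000513) and *cpa5* at 1.12 (adjusted p 0.000377) in mmp-bearing against dividing cells, with the sign turned, while *scpp8* remained higher, at 2.71. The added cells included a cluster of 85 with 12 of 12 erythroid markers and 0 neutrophil markers, so these values do not describe neutrophil-like cells alone. In IT325 replicate 9, dividing cells went from 2 to 14 and mmp-bearing cells stayed at 8, while in fr105 replicate 3 neither number changed. The part of the added cells in the turned signs was not tested. Within genotypes, *lyz* was at -0.85 in fr105 (adjusted p 0.476), -1.03 in IT325 (adjusted p 5.06e-06) and -1.58 in wild-type (adjusted p 0.000598). The value of *scpp8* was 0.84 in fr105 alone (adjusted p 0.144) and 1.84 in IT325 alone (adjusted p 0.00142). A genotype difference of the contrast was not detected for any of 373 genes by the edgeR quasi-likelihood test (0%), with 76 genes in fr105 (20.4%) and 45 in IT325 (12.1%) at an unadjusted p under 0.05. For *lyz* the difference from wild-type was 0.86 in fr105 (SE 0.59) and 0.67 in IT325 (SE 0.56), and for *scpp8* it was -1.23 (SE 0.58) and -0.23 (SE 0.64).

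When mmp-bearing cells alone were compared between genotypes, a comparison chosen after seeing the data, *lyz* was higher in both mutants. It was at 63.3, 331 and 678 per 10000 in fr105 libraries (lowest, median, highest), 121, 352 and 451 in IT325 libraries, and 73.97, 107 and 218 in wild-type libraries. The log2 fold change was 1.304 in fr105 (adjusted p 0.00189) and 1.20 in IT325 (adjusted p 0.00230), against 0.52 and 0.45 in all neutrophil-like cells, and ranges overlapped in both comparisons. In the same cells *npsn* was at 54.2, 142 and 241 in fr105 libraries, 34.3, 77.0 and 108.6 in IT325 libraries, and 8.002, 11.1 and 14.0 in wild-type libraries, with log2 fold changes of 3.55 and 2.75. The value of *lect2l* was 0.57 in fr105 (adjusted p 0.0518) and -0.77 in IT325 (adjusted p 0.00600). One of the genes that mark these cells, *mmp9*, itself differed between genotypes, as given next.

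Other granule and secreted defence genes formed a list of 26, of which 20 were matched and 9 passed the filter. In fr105 neutrophil-like cells 2 of 9 rose and 1 fell against wild-type, beside 19.3% of all genes called in either direction, with a median log2 fold change of 0.11 (-0.01 over all genes), and in IT325 7 rose and 1 fell, beside 36.1%, with a median of 2.73 (-0.02 over all genes). The study told myeloid clusters apart by *mmp9*, *grn1* and *ctsk* in these same cells, and *mmp9* and *lygl1* helped to name the neutrophil-like cells, so that these members are not independent evidence. The filter also keeps a gene that is expressed in 1 genotype alone. Wild-type levels of *mmp9* (0 to 2.26 per 10000) and *lygl1* (0.12 to 1.22) were near 0, where a fall can hardly be seen. The counts and medians are therefore not read as a result about the list. The granulin gene *grn1* was at 0.05, 0.76 and 2.86 per 10000 in fr105 libraries, 23.4, 44.9 and 82.1 in IT325 libraries, and 0.16, 1.42 and 4.18 in wild-type libraries. IT325 libraries lay apart from both others, with a log2 fold change of 4.68 (adjusted p 1.88e-11), while in fr105 it was -1.21 (adjusted p 0.0917). The cathepsin K gene *ctsk* rose in both, by 3.93 in fr105 and 4.09 in IT325 on the log2 scale. Its levels were low, at 0.82 to 2.52 per 10000 in fr105 libraries, 0.67 to 2.99 in IT325 libraries and 0 to 0.27 in wild-type libraries. The g-type lysozyme gene *lygl1* rose by 1.13 and 3.31, and the gelatinase gene *mmp9* differed by 1.136 in fr105 (adjusted p 0.138) and 3.77 in IT325 (adjusted p 5.41e-08).

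Of the NADPH oxidase, the complex that supplies the oxidants used with *mpx*, 3 subunit genes are given here. The gene *ncf4* differed by 0.51 in fr105 (adjusted p 0.103) and 0.59 in IT325 (adjusted p 0.0349) on the log2 scale, and *ncf1* by -0.13 (adjusted p 0.673) and -0.95 (adjusted p 5.22e-05). The membrane subunit gene *cyba* rose in fr105, by 0.53 (adjusted p 0.0119), and was at -0.01 in IT325 (adjusted p 0.970). Both *ncf1* and *cyba* helped to name the neutrophil-like cells, so that their values are not independent of how the cells were chosen.

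Of 16 genes of granule release, 9 were tested, of which 2 fell in fr105 and 1 rose and 3 fell in IT325, with medians of -0.04 and -0.29. These counts stand near the 19.3% and 36.1% of all genes called. The priming factor gene *unc13d* was at -0.81 in fr105 and -1.096 in IT325, and the vesicle SNARE gene *vamp8* at -0.45 and -0.81, and both fell in both mutants. The gene *snap23.1* was at -0.12 (adjusted p 0.834) and -0.92 (adjusted p 0.0214), and the kinase gene *hck* at 0.37 (adjusted p 0.105) and 0.64 (adjusted p 0.00178).

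Of 19 granulocyte regulators, 8 were tested, of which 2 rose and 2 fell in fr105, beside 19.3% of all genes, and 2 rose and 3 fell in IT325, beside 36.1%, with medians of 0.16 and 0.19. The targeted gene *ikzf1* was itself higher, by 1.28 in fr105 (adjusted p 0.000382) and 1.90 in IT325 (adjusted p 2.45e-07), and *spi1a*, which encodes a relative of the myeloid transcription factor Pu.1, was higher by 1.28 and 1.24. The genes *cxcr4b*, which encodes a receptor that retains neutrophils in marrow, and *cebpb*, which encodes a granulocyte transcription factor, fell by 0.46 and 0.92 and by 0.81 and 0.76 on the log2 scale in fr105 and IT325.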

How the data were processed

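Per the study's methods, the authors aligned reads to gene models of an Ensembl release, named there, with improved 3′ ends and to spike-in sequences, discarded reads that matched more than 1 locus, kept the sense strand and counted UMIs per cell barcode and gene. BWA 0.6.2-r126 and bcl2fastq 2.17.1.14 are named in the submitters' processing notes; the genome build itself is not given in the sources used here. The deposited values are expected counts, that is transcript numbers estimated from UMIs of 6 bases by a binomial correction, without normalization or a filter on cells. Of 4096 possible UMIs, abundant genes such as *lyz* use the most, which makes their values less precise; UMI counts were run as an alternative. Each file lists 192 barcodes. The 96 that hold the library's own cells were used, and the others, with 0.71 to 7.09% of transcripts, were left out. The 17 spike-ins (0.0036% of transcripts) were left out too.

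Each well held 1 sorted cell, so no doublet caller was run. Cells were clustered without the 6 genes (2000 variable genes, 30 principal components, 15 neighbours, Leiden resolution 1) with leidenalg 0.10.2 and igraph 0.11.9, after scikit-learn 1.9.0, under Python 3.11.15 with scipy 1.17.1, pandas 2.3.3 and numpy 2.4.6. A cluster was named from at least 3 markers and 50% of a matched list, with 1.5 times as many as the next class; the authors' own clusters were not used, so that differences from the study may come from rebuilt names. Sums per library were rounded to whole numbers and tested with edgeR 4.0.16 (TMM, filterByExpr, quasi-likelihood, 1 fit over 24 libraries) in R 4.3.3, with DESeq2 1.42.0 as an alternative; figures were drawn with matplotlib 3.10.9. The scripts were tested on simulated data. Fold changes are of the genotype named first over the other.

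The 6 genes, the lists and the tests were chosen with earlier results of these data known. Named beside the 6 genes were, for each, the 3 genes with the highest correlation, and from each list at most 4 genes past the threshold in a mutant, by size of change. One gene that this rule names, and the counts of its list, are not reported here. A symbol was found for 17966 genes (74.9%), and the table calls *mpx* EPX and *cpa5* CPA1. Alternatives were other filters, normalizations, depths, clusterings and sets of libraries, and leaving out each library. Promoter, transcript and protein sequences were not used here.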

Additional observations from a re-analysis of the deposited data

Results flagged for a closer look

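Of 54 groups of 8 libraries examined (6 genes, 3 genotypes, 3 measures), 4 held a library far from the others by Dixon's test at the 95% level, where chance gives about 1 in 20. In neutrophil-like cells, *mpx* was at 80.1 transcripts per 10000 in IT325 replicate 9, against 45.2 to 61.4 in the other IT325 libraries, and *lect2l* was at 35.6 in IT325 replicate 10, against 53.5 to 62.1. Among shares of thinned cells with a UMI, *lyz* was at 71.7% in wild-type replicate 6, against 84.4 to 94.6% in the other wild-type libraries, and *npsn* was at 22.2% in wild-type replicate 7, against 34.8 to 45.5%. Without IT325 replicate 9 or 10 the calls of *mpx* and *lect2l* in IT325 against wild-type remained.

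The direct test of fr105 against IT325 passed for the following genes. In sums over all cells the difference was 0.72 for *lyz*, 1.42 for *npsn*, 1.95 for *lect2l* and 0.92 for *scpp8* on the log2 scale. In neutrophil-like cells it was -0.71 for *mpx*, 0.81 for *npsn* and 1.27 for *lect2l*. In shares of thinned cells with a UMI it was 14.9 points for *mpx*, 27.2 for *npsn*, 18.5 for *cpa5*, 34.7 for *lect2l* and 19.2 for *scpp8* (exact permutation test, adjusted p 0.0189 for *mpx* and 0.00764 for the others). The *mpx* call was lost at full depth (5.29 points, adjusted p 0.382) and at 3000 transcripts per cell (16.9 points, adjusted p 0.0848), and the *cpa5* call at full depth (10.9 points, adjusted p 0.0931). The level of *mpx* over all cells did not differ detectably between the mutants, and its share includes the share of neutrophil-like cells. No order of levels is read from that share, or from the share of *scpp8*, which was under 1 UMI per thinned cell. The gene *lect2l* was the 1 gene with effects of opposite sign that were both called, at 0.38 in fr105 and -0.89 in IT325 in neutrophil-like cells, and its fr105 call was lost under 5 of 12 alternatives and without any 1 of 3 libraries (fr105 replicate 3 or 8 or wild-type replicate 6).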

How the results depend on the processing

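The calls of *npsn* and *mpx* in both mutants against wild-type, and of *lect2l* in IT325, held in sums under every alternative run and with each library left out. Numbers of genes called moved as follows in sums over all cells, in the order fr105 against wild-type (789), IT325 against wild-type (719) and fr105 against IT325 (947). With no filter on low counts they were 1549, 1538 and 1580, with thinned cells 225, 205 and 266, and with P1 libraries 231, 408 and 208. For IT325 against wild-type alone they moved to 352 with P2 libraries, 420 with IT325 P1 libraries against all wild-type libraries, and 401 with a replicate block. In neutrophil-like cells the numbers were 344, 645 and 445; thinned cells gave 88, 127 and 85, P1 libraries 204, 415 and 169, P2 libraries 226, 326 and 272, and mmp-bearing cells, chosen after seeing the data, 198, 319 and 202. No filter gave 624 and 1002 against wild-type, IT325 P1 libraries 373, and the replicate block 394 for IT325 against wild-type and 240 for fr105 against IT325. Between mmp-bearing and dividing cells (229), no filter gave 411, cells outside other named classes 471, fr105 alone 22 and IT325 alone 112. By share of cells (204, 356 and 255), full depth gave 530, 1584 and 835, at least 2 UMIs 128, 146 and 121, and P1 or P2 libraries 0, since the smallest p of 4 against 4 libraries is 0.0286. The cause of these moves was not tested.

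Replicate numbers did not pair the libraries (r of equal numbers -0.15 to 0.11 over 16 pairs), and the block is given for its effect alone. With it, *cpa5* in IT325 over all cells was no longer called (0.48), and signs turned for *lyz* in IT325 (-0.021) and for *mpx* (0.23) and, in neutrophil-like cells, *scpp8* (-0.043) in fr105 against IT325. It also ended the call of *lyz* in fr105 against IT325 over all cells (0.98) and gave one to *scpp8* in IT325 in neutrophil-like cells (0.81). Other signs turned as follows. Over all cells, *lyz* in IT325 was -0.27 with P1 libraries and -0.0067 with cells of at least 3000 transcripts (-0.016 to 0.26 with 1 library left out), *scpp8* was -0.071 with P1 libraries, and *mpx* in fr105 against IT325 was 0.10 with P2 libraries and 0.023 with thinned cells (-0.15 to 0.0099). In neutrophil-like cells, *lyz* in fr105 against IT325 was -0.10 with P1 libraries and -0.0013 with thinned cells (-0.066 to 0.15), and *scpp8* was -0.038 in mmp-bearing cells. In fr105, *mmp9* was -0.16 with P2 libraries and *snap23.1* was 0.057 at 3000 transcripts, and in IT325 *cyba* was 0.069 with no filter, 0.13 and 0.10 with P1 libraries within the set and against all wild-type, and 0.022 with thinned cells (-0.087 to 0.085). The stage values turned for *mpx* in fr105 alone (-0.094) and, in cells outside other named classes, for *lyz* (0.51), *npsn* (1.20) and *cpa5* (1.12). Shares in IT325 turned for *mpx* at full depth (6.30 points), for *lyz* at full depth (1.91) and thinned to 3000 (2.96; -3.46 to 1.00 with 1 library left out), and for *cpa5* at full depth (4.30), thinned to 3000 (1.91), at 2 UMIs (0.87) and with P2 libraries (5.38; -2.85 to 0.82).

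Few cells per library limit the comparison of dividing cells, and 1 UMI or fewer per thinned cell limits *scpp8*. Intervals cover counting error or the spread between libraries only.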
